A study of Homo sapiens with 4 samples.

Results

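The RAS-MAPK feedback genes are 10 genes whose transcription is switched on by the kinase ERK and whose products, for the most part, restrain the same pathway. They were taken as a named list, not by a rule on measured values, but with earlier results of these data known. The list holds the phosphatases *DUSP4*, *DUSP5* and *DUSP6* and the Sprouty genes *SPRY1*, *SPRY2* and *SPRY4*. It also holds the Spred genes *SPRED1* and *SPRED2* and the ETS transcription factors *ETV4* and *ETV5*. All 10 were found among the 60279 listed genes, and all 10 were among the 14269 genes tested, those with a mean of at least 1 CPM, the read count relative to the library's gene total, over the libraries. RNA was sequenced from SUM159, an established triple-negative breast cancer (TNBC) cell line known to carry an activating mutation of *HRAS*, with 1 library in each of 4 conditions. The conditions were untreated cells, palbociclib (which blocks the kinases CDK4 and CDK6 of the cell cycle), indisulam (which leads to loss of the splicing factor RBM39) and the combination of both drugs. The sample labels state 0.5 µM palbociclib and 2 µM indisulam for 10 days, whereas the text on the series states 2 µM and 3 µM for 16 h, in technical duplicates, and it is not stated whether duplicates were pooled into a library. The study describes both treatments, as separate experiments, and the labels match the longer one, which it used for its senescence lists. All 4 cultures were grown in serum with insulin and hydrocortisone, so growth factors that feed the pathway were present in every condition.

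When a growth factor receptor is active, RAS is loaded with GTP and passes the signal through the kinases RAF, MEK and ERK. ERK then drives transcription of genes that feed back on it: dual-specificity phosphatases remove the activating phosphates from ERK, Sprouty proteins act between the receptor and RAF, Spred proteins bring the RAS inactivator neurofibromin to the membrane, and ETV4 and ETV5 are ETS factors that carry the output to further genes. In tumour cells with mutant RAS the transcripts of these genes are widely used as a readout of pathway output, although each is also controlled by other inputs. Phosphorylated ERK was not measured in these libraries.

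The libraries held 12555908 to 16712174 reads in genes, so that 3 reads, the floor used here, corresponded to 0.180 to 0.239 CPM, far below every one of the 10 genes. Reads of mitochondrial genes made up 4.90 to 7.33% of the gene reads, lowest with indisulam and highest with palbociclib. The line was checked against its markers: *ESR1* (0.239 to 1.11 CPM) and *PGR* (0 to 0.209 CPM) were near the floor, and *ERBB2* was at 110 to 143 CPM. The mesenchymal marker *VIM* was at 2643 to 4598 CPM and *CD44* at 706 to 883 CPM. Epithelial markers differed: *CDH1* and *EPCAM* were at no more than 1.95 CPM, but *KRT8* was at 416 to 575 CPM and *KRT18* at 162 to 249 CPM. Of the 3 markers of other cell types that were examined all were detected, *PTPRC* at 11.1 to 17.5 CPM, *PECAM1* at 15.2 to 40.9 CPM (highest with palbociclib) and *COL1A1* at 1246 to 2807 CPM (also highest with palbociclib), and their part in the results was not tested. With 1 library per condition no test between conditions was made, and no difference was checked against a replicate library. Each log2 ratio is given with a 95% interval in brackets that covers counting error only, and a gene is called higher or lower where the ratio reached 2-fold with an interval that excluded no change. In these bulk samples, fewer cells of a type and less RNA per cell cannot be told apart.

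Sequence upstream of the genes is shown for 3 members. These are 1 whose transcript was called higher with every treatment and the 2 whose start regions held CCGGAA. This is a form of the ETS element that ETV4 and ETV5 can recognise. RefSeq promoter windows (GRCh38.p14, 250 bases before to 50 after a start site) were matched for 6 of the 10 genes, with 10 windows in all; *DUSP4*, *DUSP5*, *ETV4* and *ETV5* had none. Each stretch reads 5′ to 3′ on the strand of the gene, and capitals mark CCGGAA. Shorter forms of the ETS element, such as GGAA, were not searched for and are not marked, also where a stretch holds them, as that of *DUSP6* does. For *DUSP6* (chr12:89352502-89352751, minus strand) and for the first window of *SPRY2* (chr13:80341127-80341376, minus strand) the 250 bases before the start are given. For the second window of *SPRY1*, which lies inside the gene and in part within exons of other transcripts, only 30 bases around the match are given (chr4:123398307-123398336, plus strand).
DUSP6: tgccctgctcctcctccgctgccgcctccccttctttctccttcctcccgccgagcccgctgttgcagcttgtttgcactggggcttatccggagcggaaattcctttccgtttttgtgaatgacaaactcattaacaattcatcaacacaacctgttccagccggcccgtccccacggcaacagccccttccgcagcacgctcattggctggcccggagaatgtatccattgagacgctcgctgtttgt
SPRY1: tgccctccgcagCCGGAAgggggccgcggg
SPRY2: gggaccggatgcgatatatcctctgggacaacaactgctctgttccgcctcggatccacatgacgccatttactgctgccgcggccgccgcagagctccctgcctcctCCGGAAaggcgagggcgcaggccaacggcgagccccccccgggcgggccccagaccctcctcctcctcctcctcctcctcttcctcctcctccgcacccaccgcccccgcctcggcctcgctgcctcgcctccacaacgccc
Both strands of every window were searched for 4 motifs. The ETS motif CCGGAA began 67 bases before the second start of *SPRY1* and 142 bases before the first start of *SPRY2*. It was held by 17.2% of all 35116 windows. The AP-1 element TGANTCA was held by the second window of *SPRED2* and by 7.71% of all windows. The cyclic AMP response element TGACGTCA (1.85% of all windows) and the Capicua octamer TGAATGNA (3.86%) were in no window of these genes. No match in a window says only that these letters were not there.

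*DUSP6* was the member that was called higher under every treatment. It encodes the cytoplasmic phosphatase that is selective for ERK (ENSG00000139318, chr12:89347235-89352501, minus strand). Its level was 13.8 CPM in untreated cells, 31.0 CPM with palbociclib, 33.8 CPM with indisulam and 36.1 CPM with the combination, from 173, 393, 565 and 518 reads. The untreated library thus stood apart from the 3 treated ones, which lay close together. Palbociclib gave a log2 ratio to untreated of 1.16 [0.91 to 1.42], indisulam one of 1.29 [1.05 to 1.54] and the combination one of 1.38 [1.14 to 1.63], and these 3 values share the untreated library. Against the single drugs the combination differed little, by 0.22 [0.03 to 0.41] from palbociclib and 0.09 [-0.08 to 0.26] from indisulam. On the opposite strand, a long noncoding RNA gene (ENSG00000274021) overlapped 28.6% of the exon bases of *DUSP6*, and it had 0 to 3 reads per library.

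*DUSP4* and *DUSP5*, which encode nuclear phosphatases of MAP kinases, showed another order. *DUSP4* (ENSG00000120875, chr8:29333064-29350684, minus strand) was at 45.9 CPM untreated, 32.9 CPM with palbociclib, 89.0 CPM with indisulam and 67.1 CPM with the combination. *DUSP5* (ENSG00000138166, chr10:110497907-110511533, plus strand) was at 41.8, 32.5, 79.6 and 90.0 CPM in the same order. For both genes the 2 libraries with indisulam lay above the 2 without it, and the palbociclib library was the lowest of the 4. With indisulam alone the log2 ratio was 0.95 [0.82 to 1.09] for *DUSP4* and 0.93 [0.78 to 1.07] for *DUSP5*, just under the 2-fold threshold. When indisulam was added to palbociclib both were called higher, *DUSP4* with 1.03 [0.86 to 1.19] and *DUSP5* with 1.47 [1.31 to 1.63]. The call of *DUSP4* rested on the scaling, since its log2 ratio was 0.93 to 0.98 with the other 3 scaling methods. With palbociclib alone the log2 ratios were -0.48 [-0.66 to -0.30] for *DUSP4* and -0.36 [-0.55 to -0.17] for *DUSP5*.

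**Figure D1:**
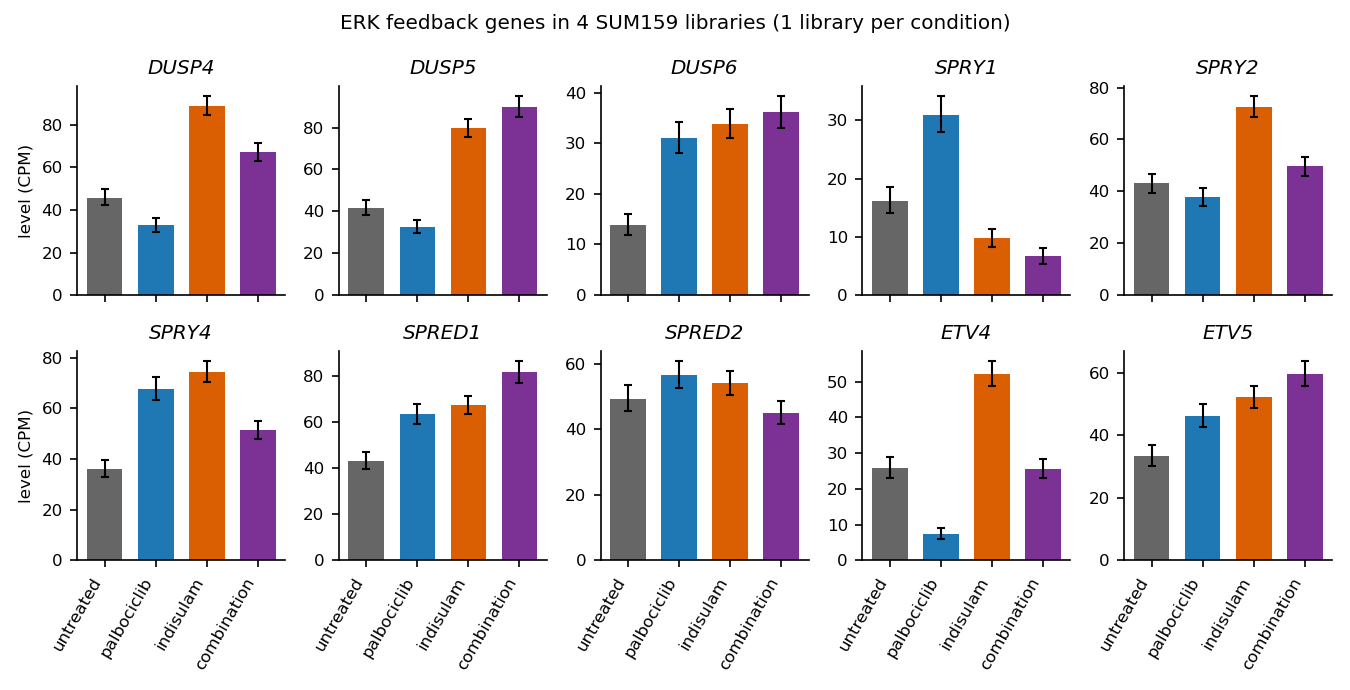
Level of each RAS-MAPK feedback gene in CPM (vertical axis, from 0, scaled separately for each gene) in the untreated, palbociclib, indisulam and combination libraries of SUM159 cells (1 library per condition); error bars are 95% Poisson counting intervals. *DUSP6* was lowest in untreated cells (13.8 CPM), *ETV4* was lowest with palbociclib (7.41 CPM), and *SPRY1* was highest with palbociclib (31.0 CPM) and lowest with the combination (6.69 CPM).

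Among the Sprouty genes, *SPRY1* and *SPRY4* were both higher with palbociclib than untreated but parted with indisulam. *SPRY1* (ENSG00000164056, chr4:123396795-123403760, plus strand) was at 16.2 CPM untreated, 31.0 CPM with palbociclib, 9.75 CPM with indisulam and 6.69 CPM with the combination, from 203, 393, 163 and 96 reads. It was the member that was lower in both libraries with indisulam than in both without it. The combination was called lower than untreated, with a log2 ratio of -1.27 [-1.61 to -0.92], and lower than palbociclib, with -2.20 [-2.52 to -1.88], which was the largest ratio of any member in the 5 comparisons of a treatment with untreated or of the combination with a single drug. The single drugs gave 0.93 [0.69 to 1.18] with palbociclib and -0.72 [-1.02 to -0.43] with indisulam, neither of which reached 2-fold.

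*SPRY4* (ENSG00000187678, chr5:142310427-142326455, minus strand) was at 36.1 CPM untreated, 67.5 CPM with palbociclib, 74.4 CPM with indisulam and 51.3 CPM with the combination. Both single-drug libraries therefore lay above the combination, which in turn lay above the untreated library. Palbociclib gave a log2 ratio to untreated of 0.90 [0.74 to 1.07], indisulam one of 1.04 [0.89 to 1.20] and the combination one of 0.51 [0.34 to 0.68]. The indisulam value was called higher, but fell short of 2-fold with the other scaling methods (0.97 to 0.98). *SPRY2* (ENSG00000136158, chr13:80335976-80341126, minus strand) was at 43.1, 37.8, 72.6 and 49.7 CPM in the same order of libraries, and was called in no comparison. Its highest level was with indisulam, at a log2 ratio of 0.75 [0.60 to 0.90] to untreated.

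The Spred genes moved less. *SPRED1* (ENSG00000166068, chr15:38252836-38357249, plus strand) was at 43.0 CPM untreated, 63.3 CPM with palbociclib, 67.4 CPM with indisulam and 81.5 CPM with the combination. Its order was untreated lowest, both single drugs next and the combination highest, with a log2 ratio of 0.92 [0.78 to 1.07] between the extremes. *SPRED2* (ENSG00000198369, chr2:65310851-65432637, minus strand) was at 49.3, 56.5, 54.0 and 44.9 CPM and had the smallest range of the 10 genes, its highest level being 1.26-fold its lowest. Neither Spred gene was called in any comparison.

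*ETV4* covered the widest range, its level with indisulam being 7.04-fold that with palbociclib. The gene (ENSG00000175832, chr17:43527844-43579620, minus strand) was at 25.8 CPM untreated, 7.41 CPM with palbociclib, 52.2 CPM with indisulam and 25.6 CPM with the combination, from 324, 94, 872 and 367 reads. It was called lower with palbociclib than untreated, with a log2 ratio of -1.79 [-2.12 to -1.46], and lower with the combination than with indisulam, with -1.03 [-1.20 to -0.85]. It was called higher with indisulam than untreated (1.01 [0.83 to 1.20]) and with the combination than with palbociclib (1.78). Between the combination and untreated the log2 ratio was -0.01 [-0.23 to 0.20]. The values near 2-fold depended on the scaling: indisulam against untreated was 0.94 to 0.95 with the other 3 methods, and the combination against indisulam was -0.995 with upper-quartile factors, just short of the call. Its paralog *ETV5* (ENSG00000244405, chr3:186046314-186110318, minus strand) was at 33.5, 46.3, 52.2 and 59.6 CPM and was called in no comparison. The 2 ETS factors thus differed with palbociclib, where *ETV5* was at a log2 ratio of 0.47 [0.29 to 0.65] to untreated. *ETV4* shared 68 exon bases with *DHX8* on the opposite strand, and *ETV5* shared 164 exon bases with *DGKG* on the same strand, where reads are ambiguous between the 2 genes.

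**Figure D2:**
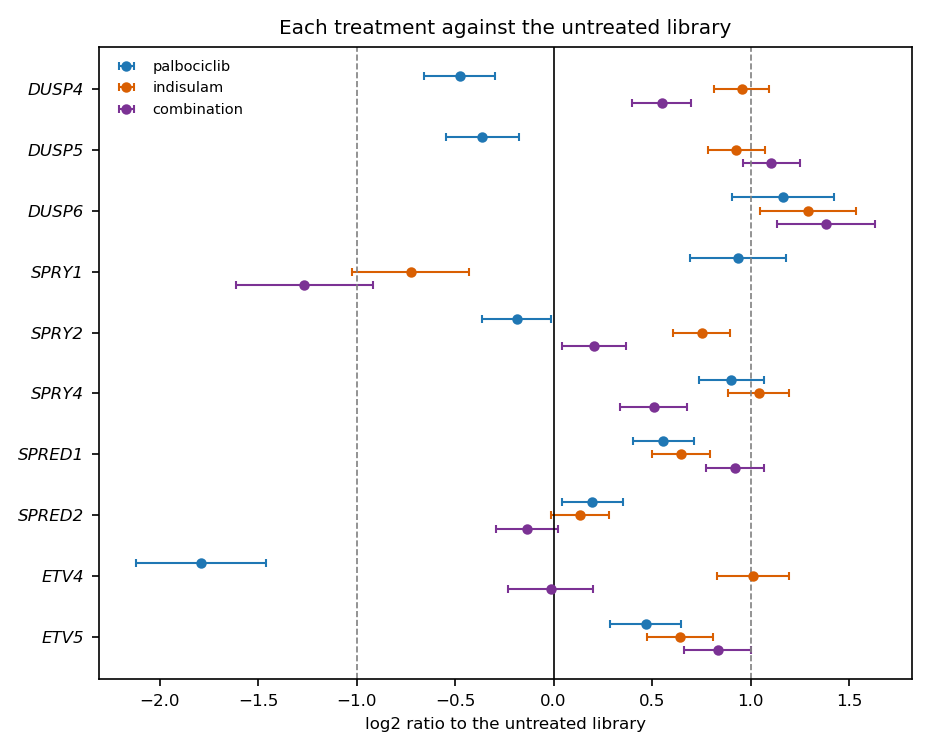
Log2 ratio of the palbociclib, indisulam and combination libraries to the untreated library (horizontal axis) for the 10 RAS-MAPK feedback genes (vertical axis); points are single-library ratios, bars are 95% counting intervals and dashed lines mark 2-fold. *DUSP6* lies beyond 2-fold to the right for all 3 treatments, while *ETV4* lies at -1.79 with palbociclib and 1.01 with indisulam.

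Counted over the list, the 10 genes did not move as a block. With palbociclib against untreated, 1 gene was higher (*DUSP6*) and 1 lower (*ETV4*), 2 of 10, where 10.7% of all tested genes were called, 5.81% higher and 4.88% lower. With indisulam, 3 were higher (*DUSP6*, *SPRY4* and *ETV4*) and 0 lower, where 15.1% of all tested genes were called, 8.37% higher and 6.69% lower. With the combination, 2 were higher (*DUSP5* and *DUSP6*) and 1 lower (*SPRY1*), where 23.5% of all tested genes were called, 12.9% higher and 10.5% lower. The median log2 ratio of the members to untreated was 0.33 with palbociclib, 0.84 with indisulam and 0.53 with the combination, beside medians of -0.02, 0.06 and 0.05 over all tested genes. With indisulam 8 of the 10 genes were higher than untreated with an interval above 0, where 36.8% of all tested genes were, *SPRY1* was lower, and the interval of *SPRED2* held 0. At a 1.5-fold threshold these same 8 genes were called higher with indisulam, where 17.2% of all tested genes were, and *SPRY1* was called lower, where 14.3% were. At this threshold palbociclib gave 3 higher (*DUSP6*, *SPRY1* and *SPRY4*) and 1 lower (*ETV4*), beside 12.5% and 12.2% of all tested genes. The combination gave 4 higher (*DUSP5*, *DUSP6*, *SPRED1* and *ETV5*) and 1 lower (*SPRY1*), beside 23.1% and 19.4%.

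Adding indisulam to palbociclib gave 3 genes called higher (*DUSP4*, *DUSP5* and *ETV4*) and 1 lower (*SPRY1*), where 16.9% of all tested genes were called (9.56% higher and 7.38% lower), with a median of 0.36 beside 0.07 over all tested genes. Adding palbociclib to indisulam gave 0 called higher and 1 lower (*ETV4*), where 8.21% were called (5.05% higher and 3.15% lower), with a median of -0.34 beside -0.01. No member had its highest level in the untreated library, where 26.2% of all tested genes had theirs, and no member had its lowest level with indisulam, where 17.7% had theirs. The highest level was with indisulam for *DUSP4*, *SPRY2*, *SPRY4* and *ETV4* (23.8% of all tested genes), with the combination for *DUSP5*, *DUSP6*, *SPRED1* and *ETV5* (30.2%), and with palbociclib for *SPRY1* and *SPRED2* (19.8%). The lowest was in untreated cells for *DUSP6*, *SPRY4*, *SPRED1* and *ETV5* (29.5% of all tested genes), with palbociclib for *DUSP4*, *DUSP5*, *SPRY2* and *ETV4* (26.6%), and with the combination for *SPRY1* and *SPRED2* (26.1%).

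To rank the genes within a library, levels were taken per length, as CPM per kilobase of exon (RPKM). In untreated cells *DUSP5* was the highest (16.5 RPKM), followed by *SPRY2* (13.4 RPKM) and *SPRED2* (8.96 RPKM), and *DUSP6* was the lowest (3.57 RPKM). That last place is not secure beside *SPRY1* (4.08 RPKM). An opposite-strand gene overlaps 28.6% of the *DUSP6* exon bases, and reads there may be uncounted, since the strand setting of the counting is not given. *DUSP5* and *SPRY2* kept the first and second place in all 4 libraries, and were at 35.5 and 15.5 RPKM with the combination. The last place was taken by *ETV4* with palbociclib (2.11 RPKM) and by *SPRY1* with indisulam (2.46 RPKM) and with the combination (1.69 RPKM). Among the middle genes neighbours could not be separated: in untreated cells *SPRED1* was at 5.55 and *SPRY4* at 5.50 RPKM.

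The layout holds each drug effect in 2 ratios that share no library, without and with the other drug. These are not replicates, because the other drug may change the effect, and their difference holds noise and any interaction of the drugs. For indisulam, 8 of 10 genes had the same direction without and with palbociclib, with both intervals excluding no change, which held for 43.6% of all tested genes. These were *DUSP4*, *DUSP5*, *DUSP6*, *SPRY2*, *SPRED1*, *ETV4* and *ETV5*, all higher, and *SPRY1*, lower. *SPRY4* had opposite directions, as did 6.31% of all tested genes. *ETV4* alone among the members was called higher in both, as were 4.85% of all tested genes, and with the other scaling methods it was not called in the first. For palbociclib, 5 of 10 genes had the same direction without and with indisulam by that rule (33.6% of all tested genes), and 4 had opposite directions (8.04% of all tested genes). *ETV4* was called lower in both, as were 1.24% of all tested genes. The 4 with opposite directions were *DUSP5*, *SPRY1*, *SPRY4* and *SPRED2*. The spread of a single log2 ratio was taken from the disagreement of these paired ratios, so it too holds noise and any interaction. Over genes with a mean of 20 to 100 CPM, where 9 of the 10 members lie, it was 0.26. Over genes of 5 to 20 CPM, where *SPRY1* lies, it was 0.37. Of the 8 genes with the same indisulam direction, all but *DUSP6* had ratios larger than the spread at their level both without and with palbociclib. The ratio of *DUSP6* with palbociclib (0.22) was within it. For palbociclib, the ratios of *DUSP4*, *SPRED1* and *ETV4* were larger both times. *SPRY2* (-0.19 without indisulam) and *ETV5* (0.19 with indisulam) each had a ratio within the spread. The opposite palbociclib ratios of *SPRED2* (0.20 and -0.27) and *DUSP5* (-0.36 and 0.18) also included values within it.

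**Figure D3:**
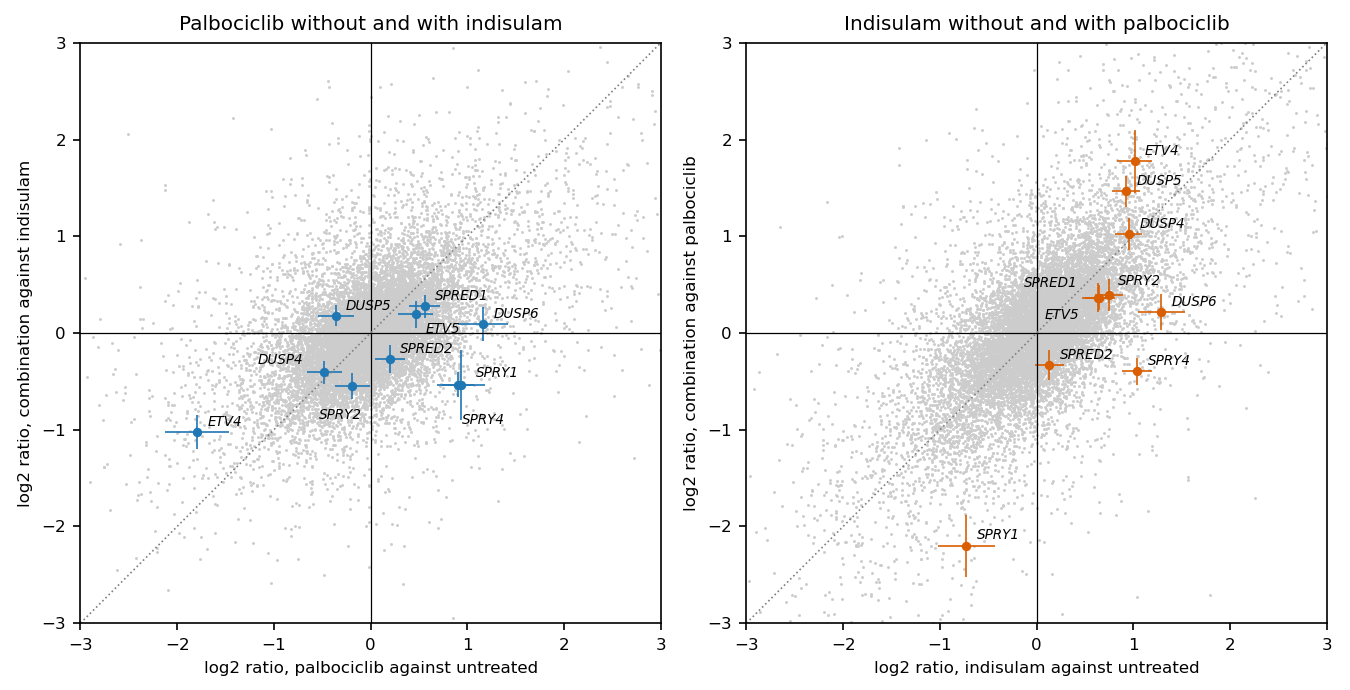
Log2 ratio for palbociclib without indisulam (horizontal) and with indisulam (vertical) in the left panel, and for indisulam without and with palbociclib in the right panel; coloured points are the 10 feedback genes with 95% counting intervals, grey points are all tested genes within the axes of -3 to 3, and the dotted line marks equal ratios. *ETV4* lies near the diagonal for palbociclib, *SPRY1* and *SPRY4* lie to the right and below 0 for palbociclib, and *SPRY4* does so for indisulam too.

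The departure from additivity, the log2 ratio of the combination to untreated minus the sum of both single-drug ratios, was at or beyond 2-fold and negative for 3 members and positive for 0, where 7.74% of all tested genes were called, 3.81% negative and 3.93% positive. It was -1.07 [-1.38 to -0.76] for *DUSP6*, -1.47 [-1.91 to -1.04] for *SPRY1* and -1.44 [-1.65 to -1.23] for *SPRY4*. *DUSP6* was higher than untreated with each drug and with both, but its level with both was little above that with either drug alone. *SPRY4* was higher with each drug than with both. *SPRY1* was lower with both than with indisulam although palbociclib alone was above untreated. The departure had an interval below 0 for 7 of 10 members, all 5 Sprouty and Spred genes among them, where 22.7% of all tested genes had one. The smaller of these were -0.36 for *SPRY2*, -0.28 for *SPRED1*, -0.46 for *SPRED2* and -0.27 for *ETV5*, which were 0.971, 0.764, 1.25 and 0.742 times the spread of the departure over genes of like level. The largest positive values were those of *ETV4* (0.76 [0.39 to 1.14]) and *DUSP5* (0.54 [0.32 to 0.75]). All of these values use the same 4 libraries, so an error in 1 library enters every one of them.

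Ratios of reads between family members within a library need no scaling between libraries. They are not corrected for exon length, so they compare libraries and do not say which gene of a pair was the higher. Per length, *DUSP6* to *DUSP4* with palbociclib was 1.77. The reads of *DUSP6* were 0.300 times those of *DUSP4* in untreated cells [0.252 to 0.357], 0.940 with palbociclib [0.817 to 1.08], 0.380 with indisulam and 0.537 with the combination [0.482 to 0.599]. The balance of these phosphatases thus lay farthest toward *DUSP6* with palbociclib. For *SPRY1* to *SPRY2* the ratio was 0.375 untreated [0.318 to 0.442], 0.819 with palbociclib [0.715 to 0.937], and 0.134 with indisulam and 0.135 with the combination. Both libraries with indisulam were thus at the same ratio, far below the other 2. The reads of *SPRED1* were 0.872 times those of *SPRED2* in untreated cells [0.776 to 0.981] and 1.82 times with the combination [1.65 to 2.00], with both single drugs between. For *ETV4* to *ETV5* the ratio was 0.771 untreated [0.665 to 0.894], 0.160 with palbociclib [0.127 to 0.199], 1.00 with indisulam [0.909 to 1.10] and 0.429 with the combination [0.378 to 0.485]. The intervals of *ETV4* to *ETV5* from the 4 libraries did not overlap.

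**Figure D4:**
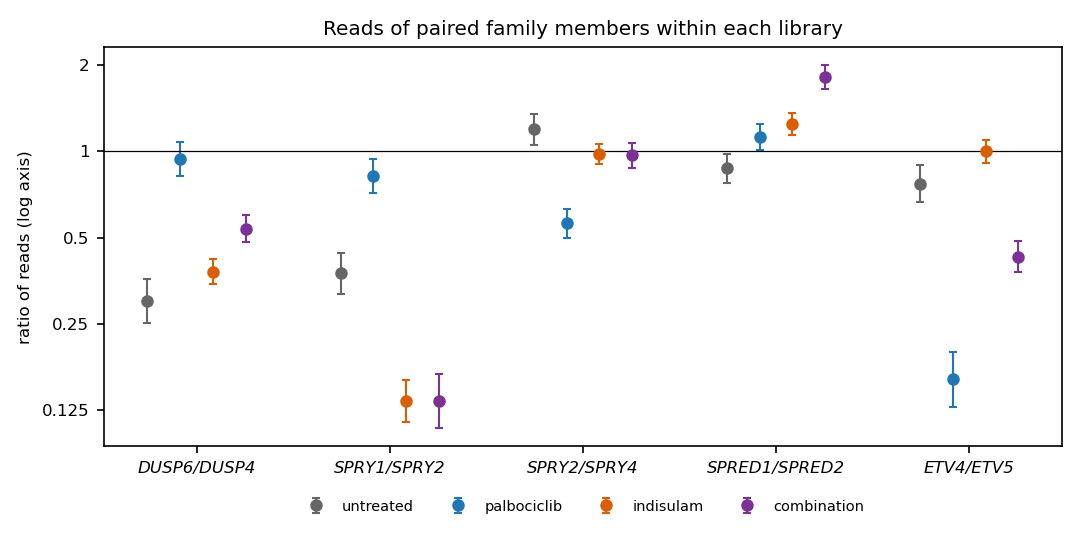
Ratio of the reads of paired family members within each library, with exact 95% counting intervals, in the untreated, palbociclib, indisulam and combination libraries. The axis is a log axis, 1 marks equal reads, and reads are not corrected for exon length. *ETV4* to *ETV5* was lowest with palbociclib (0.160), and *SPRY1* to *SPRY2* was the same in both libraries with indisulam (0.134 and 0.135).

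Some members had nearly the same profile. *SPRED1* and *ETV5* were the nearest pair, at a distance of 0.0874 between their log2 levels centred over the 4 libraries, and *ETV4* and *SPRY1* were the farthest apart, at 3.46. *DUSP4* and *DUSP5* were each other's nearest member (0.469). Over 11366 genes with a mean of at least 5 CPM, the 5 non-member genes most like *DUSP6* by this distance were *MYLK* (0.0489), *TIMM23B* (0.0823), *EEF1A2* (0.0884), *ADAMTS14* (0.121) and *COL12A1* (0.142). *MYLK*, which encodes a myosin light chain kinase, was at 136 CPM untreated, 308 CPM with palbociclib, 334 CPM with indisulam and 370.5 CPM with the combination. These likenesses rest on 4 points each and are descriptions of the libraries.

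The rest of the pathway was described with 62 other genes in 5 lists, of which 61 were tested. Of these, 3 were higher (*LRIG1*, *EGR3* and *CCND1*) and 2 lower (*DUSP16* and *MKNK2*) with palbociclib, 7 higher and 2 lower with indisulam, and 6 higher and 7 lower with the combination, each against untreated. These counts lie near the shares of all tested genes called, 10.7%, 15.1% and 23.5%. Their medians were -0.05, 0.13 and -0.00. The 13 tested genes of the list of other feedback genes had medians of 0.26, 0.42 and 0.49 with palbociclib, indisulam and the combination, above those of all tested genes as were the members' 0.33, 0.84 and 0.53. Of these 13 genes, 4 were called higher with indisulam and 0 lower, where 8.37% and 6.69% of all tested genes were. *DUSP8*, a phosphatase of stress-activated MAP kinases, was at 1.19 CPM untreated (15 reads), 1.34 CPM with palbociclib, 9.93 CPM with indisulam and 5.92 CPM with the combination. *LRIG1*, a membrane protein that limits receptor tyrosine kinases, had a pattern like that of *DUSP6*, at 34.2 CPM untreated, 79.8 CPM with palbociclib, 75.8 CPM with indisulam and 85.1 CPM with the combination. *IER3*, an early response gene, was at 97.6, 76.5, 233 and 177 CPM, with both libraries with indisulam above both without it, as for *DUSP4* and *DUSP5*. *SPRED3*, the third Spred gene, rested on 12 to 40 reads per library and was called higher with indisulam, at a log2 ratio of 1.26 [0.36 to 2.17].

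The early response genes downstream of ERK split. With the combination against untreated, 3 of 12 were higher (*FOSL1*, *CCND1* and *EGR2*), where 12.9% of all tested genes were. Another 4 were lower (*FOS*, *EGR1*, *EGR3* and *IER2*), where 10.5% of all tested genes were. The log2 ratios of the 12 genes ran from -3.53 to 1.63. *FOS*, a subunit of the transcription factor AP-1, was at 190 CPM untreated, 208 CPM with palbociclib, 59.7 CPM with indisulam and 16.4 CPM with the combination. *EGR1*, a zinc finger factor induced within minutes of ERK activation, was at 247, 287, 146 and 37.0 CPM in the same order. Both were thus lowest with the combination, where the log2 ratio to untreated was -3.53 [-3.72 to -3.34] for *FOS* and -2.73 [-2.87 to -2.60] for *EGR1*, while *DUSP6* was called higher in the same library. *FOSL1*, another AP-1 subunit, went the other way, from 22.6 CPM untreated to 39.6 CPM with palbociclib, 53.0 CPM with indisulam and 69.8 CPM with the combination. *CCND1*, which encodes the cyclin partner of CDK4 and CDK6, was at 171, 449, 218 and 530 CPM, high in both libraries with palbociclib. Negative departures from additivity were called for *FOS* (-1.99), *EGR1* (-2.19) and *EGR3* (-2.07) in this list. Among the other feedback genes they were called for *DUSP2*, *SPRED3* and *LRIG1*. These were 6 of the 61 tested, where 3.81% of all tested genes had a negative call. Positive ones were called for 0, beside 3.93% of all tested genes.

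Among the 16 genes of the core cascade, 0 were higher and 2 lower than untreated with the combination, where 10.5% of all tested genes were lower: *MAPK3*, which encodes the ERK1 kinase, at 86.9 CPM untreated, 47.0 CPM with palbociclib, 48.5 CPM with indisulam and 26.8 CPM with the combination, and *MKNK2*, which encodes a kinase downstream of ERK. The levels of *MKNK2* were 298.5, 137, 173 and 95.5 CPM. *KSR1*, a scaffold of the cascade, was called higher when indisulam was added to palbociclib (log2 ratio 1.01). *HRAS* itself was called in no comparison, with 19.0, 19.9, 24.8 and 25.7 CPM. Of 12 upstream adaptors, exchange factors and RAS inactivators, the adaptor *SHC1* was called lower with the combination (820 to 355 CPM, log2 ratio -1.21 [-1.26 to -1.16]) and the other 11 were not called in any comparison with untreated. Of 8 further transcription factors of the pathway, the ETS factor *ETS2* was called higher with indisulam (1.18) and with the combination (1.19), at 77.1 CPM untreated, 95.7 CPM with palbociclib, 175 CPM with indisulam and 176 CPM with the combination.

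**Figure D5:**
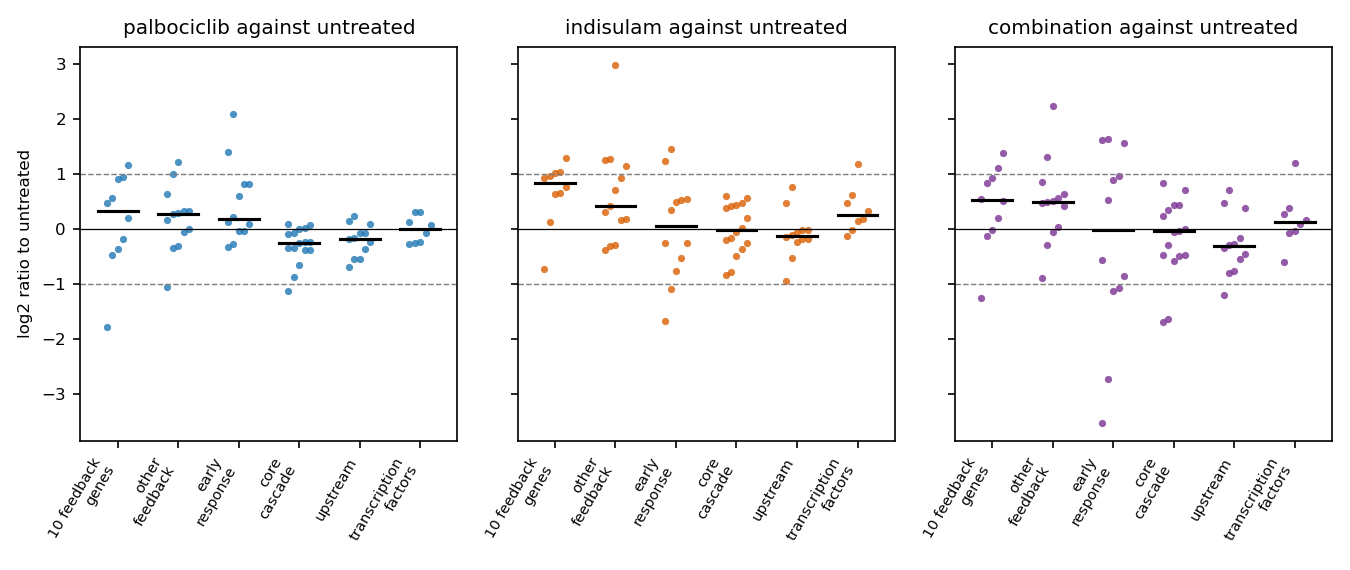
Log2 ratio to the untreated library (vertical axis) of each tested gene in the 10 feedback genes and the 5 other pathway lists, for palbociclib, indisulam and the combination; each point is 1 gene, black bars are list medians and dashed lines mark 2-fold. The median of the 10 feedback genes was 0.33, 0.84 and 0.53, and the early response genes spread from -3.53 to 1.63 with the combination.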

How the data were processed

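The authors deposited raw read counts for each Ensembl gene, 1 table per library. The submitters' processing notes name TopHat2 2.1, HTSeq and GRCh38. Per the labels, RNA was extracted with Trizol and a stranded mRNA kit was used. The strand setting of the counting and the annotation release are not given in the sources used here, and reads that were ambiguous (2.41 to 2.63% of listed reads) or not uniquely aligned (6.46 to 6.84%) were in no gene. Groups came from the treatment labels. Counts were scaled by the gene total of each library to the mean total of the 4, and log2 ratios were taken after adding 1 scaled count. Genes with a mean of at least 1 CPM were tested (14269 of 60279). A 95% Poisson interval (delta method) and a 2-fold threshold gave the calls; ratios of reads within a library have exact (Clopper-Pearson) intervals. These intervals and the floor hold counting error alone. PCR copies of a molecule were not marked by identifiers, so copies counted as separate reads and the intervals may be too narrow. The labels name no batch, so a batch and a condition cannot be told apart. The scripts were tested on simulated counts. Alternatives were edgeR 4.0.16 TMM and upper-quartile factors, median-of-ratios size factors, another pseudocount (5), no filter or a mean of 5 CPM, and a 1.5-fold threshold. Symbols and positions are from GENCODE release 44 (hg38). The members, the pathway lists and the naming rule were chosen with earlier results of these data known. All 10 members are named. From each pathway list up to 4 genes called against untreated are named, by the size of the combination ratio, with *HRAS* and *CCND1* always and the 5 genes nearest to *DUSP6*. *EGR2*, *EGR3*, *IER2*, *DUSP2* and *DUSP16* were named beyond this rule, after their values were seen.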

Additional observations from a re-analysis of the deposited data

Results flagged for a closer look

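The effect of palbociclib had opposite directions without and with indisulam in 4 feedback genes, and that of indisulam without and with palbociclib in 1. With 1 library per condition, none of these differences was tested. *SPRY1* had a palbociclib log2 ratio of 0.93 without indisulam and -0.54 with it. *SPRY4* had 0.90 and -0.53. *DUSP5* had -0.36 and 0.18. *SPRED2* had 0.20 and -0.27. *SPRY4* also had opposite indisulam ratios, 1.04 without palbociclib and -0.40 with it. The difference between its indisulam ratios is the same quantity as that between its palbociclib ratios, its departure from additivity. The ratios of *SPRY1* and *SPRY4* were larger in each direction than the spread of a single ratio at their levels (0.37 and 0.26). *DUSP5* and *SPRED2* each had a ratio within that spread, which holds noise and any interaction of the drugs.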

How the results depend on the processing

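No log2 ratio or median of the members changed sign under any alternative run, and all 410 single ratios recomputed lay within their counting intervals. Calls near 2-fold did change. Among members, indisulam against untreated gave 3 calls, and 1 with TMM factors, 1 with median-of-ratios factors and 1 with upper-quartile factors, since *SPRY4* and *ETV4* dropped below 2-fold. The combination against palbociclib gave 4 calls, and 3 with each of these factors, since *DUSP4* dropped below 2-fold. The combination against indisulam gave 1 call, and 0 with upper-quartile factors. At 1.5-fold the members called were 4 with palbociclib, 9 with indisulam and 5 with the combination against untreated, in place of 2, 3 and 3. The other pathway genes called at 1.5-fold were 12, 18 and 26 for those same comparisons, 23 for the combination against palbociclib and 13 against indisulam, in place of 5, 9, 13, 9 and 5. With a mean of at least 5 CPM the last count was 3, since fewer genes were tested. Scaling moved the median of all tested genes by at most 0.0976 on the log2 scale and the share of higher among all calls by at most 8.01 percentage points. With TMM factors the excess of higher over lower calls among all tested genes turned round for indisulam (1046 higher, 1086 lower) and the combination (1615 and 1719) against untreated and for the combination against palbociclib (1164 and 1240). No paired analysis was possible because there was 1 library per condition and no replicate numbers, and no replicate could be left out. Depth was least for *ETV4* with palbociclib (94 reads) and *SPRY1* with the combination (96 reads). The conflict between the labels and the series text on dose and duration was not settled by the values.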
